A study of Mus musculus with 48 samples.

Results

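At 5 of 45 ribosome biogenesis genes in mouse embryonic stem cells, loss of ZBTB11 or ZFP131 came with new H3K27me3 over the promoter and lower H3K4me3. Noc4l, Rrp1b, Tbl3 and Nop9 showed this in Zfp131KO cells, and Wdr36 showed it in Zbtb11KO cells. None of the 45 had an H3K27me3 domain in wildtype, so a rise was favoured in advance. How many of all genes show both changes was not counted. The 45 genes were taken by name as factors of small and large ribosomal subunit processing, out of 21887 protein-coding genes, and all 45 were found in the RefSeq table. Each gene was described by what lay within 1 kb of either of its ends on mm10. By role, 4 belong to UTP-A, 5 to UTP-B, 4 to the U3 and MPP10 group, 11 to other small subunit factors, 12 to large subunit factors, 3 to box C/D particles, 4 to box H/ACA particles, and 2 are nucleolar chaperones.

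Ribosome biogenesis starts in the nucleolus, where RNA polymerase I makes a long precursor RNA that is cut, modified and folded while ribosomal proteins join it. The UTP-A and UTP-B subcomplexes and the U3 particle assemble on the growing precursor and form the small subunit processome, and a separate set of factors builds the large subunit. Box C/D and box H/ACA particles guide 2′-O-methylation and pseudouridylation of the RNA. Embryonic stem cells divide quickly and are known for high ribosome production.

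The study holds 48 ChIP-seq samples, in 24 groups of 2, of 9 targets. Zbtb11KO cells (iZbtb11-HA Zbtb11KO), Zfp131KO cells (iZfp131-HA Zfp131KO) and double knockout cells (iZbtb11-HA iZfp131-V5 Zbtb11KO Zfp131KO) were compared with wildtype cells (iCre). The knockout lines carry a tagged copy of the deleted factor that doxycycline induces, and the labels name 1 line per genotype, so the knockout and the line cannot be told apart. For all targets but HA, cells were kept for 3 days with LIF but without doxycycline and without the 2i inhibitors of MEK and GSK3. HA was measured in Zbtb11KO and Zfp131KO cells with doxycycline and with 2i, so binding and knockout values come from different media. NELF, a complex that holds paused RNA polymerase II, and H3K4me3, a mark of active promoters, were measured in all 4 genotypes. H3K27ac, another active mark, H3K27me3, the mark of Polycomb repression, and the corepressor subunits CHD4 and SIN3A were measured in both single knockouts and wildtype, and the H3K4 methyltransferase SETD1A and polymerase II phosphorylated on serine 5 in wildtype alone.

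Promoters with strong events of either factor inside the printed window are shown first, to let the sites be seen beside the values below. They are examples, and other strong sites, such as ZBTB11 at Wdr36, Nop16 and Nop2, are not printed. Capitals mark 21 bases centred on each ZFP131 event point that falls inside the window, which runs from 250 bases before to 50 bases after the RefSeq start (GRCm38.p6). Noc4l lies at chr5:110653333-110653632 (minus strand), Bysl at chr17:47611443-47611742 (minus strand), Utp15 at chr13:98262943-98263242 (minus strand), Gar1 at chr3:129831347-129831646 (minus strand) and Rrp1b at chr17:32035912-32036211 (plus strand). At Rrp1b the larger events lie past the window, 155 and 236 bases after the start, and the marked one holds 127 reads.
Noc4l: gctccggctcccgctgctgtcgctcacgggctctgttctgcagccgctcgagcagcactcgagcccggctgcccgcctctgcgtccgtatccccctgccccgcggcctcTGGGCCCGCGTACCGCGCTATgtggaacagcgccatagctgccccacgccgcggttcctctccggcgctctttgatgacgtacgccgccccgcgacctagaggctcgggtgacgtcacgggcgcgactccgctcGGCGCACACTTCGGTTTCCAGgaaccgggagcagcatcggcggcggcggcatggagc
Bysl: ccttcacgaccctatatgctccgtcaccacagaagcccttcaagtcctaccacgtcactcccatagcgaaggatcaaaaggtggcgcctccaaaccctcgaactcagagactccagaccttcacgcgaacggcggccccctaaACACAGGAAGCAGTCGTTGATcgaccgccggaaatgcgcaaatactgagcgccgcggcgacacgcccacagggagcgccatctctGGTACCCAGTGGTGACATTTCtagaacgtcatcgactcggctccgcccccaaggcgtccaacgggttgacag
Utp15: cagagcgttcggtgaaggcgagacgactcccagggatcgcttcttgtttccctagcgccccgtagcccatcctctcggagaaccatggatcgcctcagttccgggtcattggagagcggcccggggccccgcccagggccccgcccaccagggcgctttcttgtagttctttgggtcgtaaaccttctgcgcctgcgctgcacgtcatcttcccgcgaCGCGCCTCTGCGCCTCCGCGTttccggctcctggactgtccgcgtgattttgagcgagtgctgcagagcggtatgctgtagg
Gar1: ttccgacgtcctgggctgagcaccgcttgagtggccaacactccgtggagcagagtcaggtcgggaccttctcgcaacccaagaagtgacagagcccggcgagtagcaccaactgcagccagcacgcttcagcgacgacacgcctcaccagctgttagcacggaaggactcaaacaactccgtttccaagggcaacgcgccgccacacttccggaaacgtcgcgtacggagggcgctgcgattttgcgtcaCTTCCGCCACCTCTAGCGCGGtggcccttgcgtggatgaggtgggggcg
Rrp1b: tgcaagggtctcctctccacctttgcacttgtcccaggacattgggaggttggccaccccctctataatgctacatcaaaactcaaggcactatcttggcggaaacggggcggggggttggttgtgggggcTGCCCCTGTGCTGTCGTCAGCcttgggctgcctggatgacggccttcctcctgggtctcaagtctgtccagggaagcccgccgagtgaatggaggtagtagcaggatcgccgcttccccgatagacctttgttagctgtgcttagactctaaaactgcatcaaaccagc
For ZBTB11, capitals mark 21 bases centred on its events at Rrp15, chr1:186749309-186749608 (minus strand), and at Utp3, chr5:88554212-88554511 (plus strand).
Rrp15: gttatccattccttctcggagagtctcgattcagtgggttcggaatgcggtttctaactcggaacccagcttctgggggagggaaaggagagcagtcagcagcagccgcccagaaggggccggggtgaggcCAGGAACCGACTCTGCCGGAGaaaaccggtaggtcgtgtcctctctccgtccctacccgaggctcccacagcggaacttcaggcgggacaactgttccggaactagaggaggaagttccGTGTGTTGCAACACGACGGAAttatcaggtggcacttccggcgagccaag
Utp3: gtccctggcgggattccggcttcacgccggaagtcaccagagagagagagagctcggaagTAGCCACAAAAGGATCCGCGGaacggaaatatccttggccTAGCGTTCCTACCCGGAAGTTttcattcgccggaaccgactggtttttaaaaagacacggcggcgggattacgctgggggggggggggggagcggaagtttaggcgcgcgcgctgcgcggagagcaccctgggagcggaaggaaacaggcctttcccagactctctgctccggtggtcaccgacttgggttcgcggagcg
RefSeq promoters were matched for 36 of the 45 genes. The E-box letters CACGTG, which read the same on both strands, occurred in 9 of the 36 promoters (25%), against 8.91% of 17492 genes with a promoter in the table. The ETS letters CCGGAAG, on either strand, occurred in 13 of 36 (36.1%), against 12.9% of genes, among them Utp3, Rrp15, Gar1, Nop2 and Wdr3. The longer motifs of NRF1 and YY1, on either strand, were not found in these 36 windows, against 1.47% and 1.06% of genes. Mean GC content was 58.5% in the 36 promoters and 55.9% over all genes.

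At each gene the files hold 1 value per group or per comparison and not per library, so at the genes the spread between replicates is seen through the standard errors of the authors' deposited DESeq2 tables, and nothing in the labels says that the libraries came from separate cultures. Their p-values measure the spread between these samples, which may be technical. The event lists rest on 24001183 to 71600161 reads, and the wildtype NELF list names 1 replicate in its header. The headers give the share of reads in events per replicate, which for NELF was 8.4% and 11.7% in Zbtb11KO, 9.7% and 13.2% in Zfp131KO and 2.7% and 8.0% in double knockout cells, and for HA 21.9% and 12.4% (ZBTB11) and 6.8% and 5.3% (ZFP131). The domain lists give no library total, so H3K4me3 reads are unscaled. Within 1 kb of its ends Zfp131 kept H3K4me3 in Zfp131KO cells (2247 reads, against 2746 in wildtype) and Zbtb11 had none in any genotype, so neither checks the labels. H3K4me3 was listed at 9 of 10 pluripotency genes in every genotype, with 34533, 38100 and 76766 summed reads in Zbtb11KO, Zfp131KO and double knockout cells, against 54754 in wildtype. It was listed at 7, 7 and 7 of 8 primitive endoderm genes with 10318, 16645 and 46449 reads in these knockouts, against 6 of 8 with 7087 in wildtype, and at 4 of 6 fibroblast genes in every genotype. Double knockout cells had 12283 H3K4me3 reads at trophectoderm, 16289 at neural and 2939 at fibroblast genes, against 4681, 7717 and 2164 in wildtype. H3K27ac reads at pluripotency genes were 7706 in Zbtb11KO and 7962 in Zfp131KO cells, against 4006 in wildtype. At primitive endoderm genes they were 0 and 10, against 268. Unscaled NELF reads at pluripotency genes were 2965, 3046 and 1240 in Zbtb11KO, Zfp131KO and double knockout cells, against 10919 in wildtype. The part of these markers in the results below was not tested, and in bulk samples fewer cells with a mark and less mark per cell cannot be told apart.

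ZBTB11 was found at 33 of the 45 genes and ZFP131 at 16. An HA event of ZBTB11 lay within 1 kb of an end at 73.3% of the members, against 35.9% of all protein-coding genes and 53.4% of genes with H3K4me3 at an end. For ZFP131 the share was 35.6% of members, against 10.2% of all genes and 15.3% of genes with H3K4me3. Both factors were listed at 15 members, ZBTB11 alone at 18, ZFP131 alone at Tbl3, and neither at 11. Over all 21887 genes these counts were 1837, 6030, 397 and 13623. Most genes with a ZFP131 event thus also had one of ZBTB11 (1837 of 2234). By role, ZBTB11 was listed at 10 of 11 other small subunit factors and at 8 of 12 large subunit factors, and ZFP131 at 6 of 11 and 1 of 12. No HA list from untagged cells was analysed here.

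**Figure D1:**
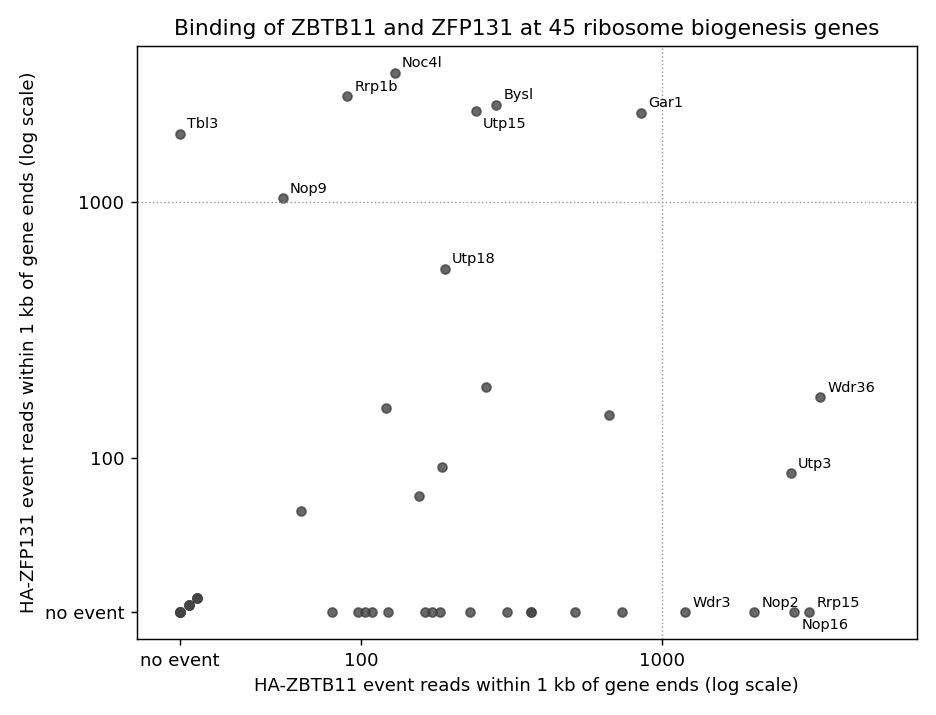
HA event reads of ZBTB11 (x axis) and of ZFP131 (y axis) within 1 kb of the ends of each of the 45 genes, both on log scales, with genes without an event at the edge and dotted lines at 1000 reads. Above 1000 reads lie 7 genes for ZFP131 and 6 for ZBTB11, against 406 and 673 of all 21887 genes. How many of all genes reach both levels was not counted.

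The members with the most ZFP131 reads come first. Noc4l, whose yeast homologue acts with Nop14 in small subunit assembly, had 3206 ZFP131 reads, the rank 2 of 2234 genes with an event. It was followed by Rrp1b, a nucleolar RRP1 homologue of the large subunit, with 2597 reads, and by Bysl, an assembly factor of the small subunit, with 2406. Utp15 of UTP-A had 2269 ZFP131 reads, Gar1 of the box H/ACA particle 2243, Tbl3 of UTP-B 1856, and Nop9, an RNA-binding protein of small subunit assembly, 1036. Below these came Utp18 with 551 reads, Wdr75 with 189.8 and Wdr36 with 173. This leaves 7 members with at least 1000 ZFP131 reads and 9 with fewer.

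ZBTB11 was strongest at Wdr36, the UTP-B subunit that corresponds to yeast Utp21, with 3349.6 reads and the rank 105 of 7867 genes with an event. Rrp15, a large subunit factor, had 3075 ZBTB11 reads, Nop16, also of the large subunit, 2751, and Utp3, a processome protein, 2674. Nop2, a methyltransferase of large subunit RNA, had 2020.0 reads and Wdr3 of UTP-B had 1189. Gar1 (850.3), Dcaf13 (738), Wdr46 (665) and Wdr12 (513) had fewer. None of the 7 members strongest for ZFP131 reached 1000 ZBTB11 reads, Gar1 being the nearest. The level of 1000 reads was set after the reads had been seen. Over all 21887 genes, 406 reached it for ZFP131 and 673 for ZBTB11, and how many reached both was not counted. The lack of overlap is therefore not read as a trait of the members.

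H3K27me3 rose in Zfp131KO cells at 6 members, and 4 of the 6 were strongly bound by ZFP131 (at least 1000 reads). In wildtype no H3K27me3 domain lay within 1 kb of any of the 45 genes, while 24.9% of all genes had one. In Zfp131KO cells 6 members had a domain, against 28.0% of genes, and in the authors' deposited table all 6 were called higher and none lower at an adjusted p under 0.05, against 9.95% and 6.59% of 6570 genes with a region. These members had no wildtype domain, so they entered that table only through the knockout list. The 28114 regions listed in Zfp131KO cells alone had a median log2 fold change of 1.06. A rise at the 6 was thus favoured in advance, and the shares of genes with a region are not a like comparison. With or without a region, 6 of 45 members were called higher and none lower, against 654 and 433 of 21887 protein-coding genes. Of the 7 members with at least 1000 ZFP131 reads, 4 were called higher in the authors' deposited table, against 56 of the 406 such genes in all (13.8%). The other 39 members had no H3K27me3 region in that table, so no value for them is given.

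Noc4l had 1062 H3K27me3 reads in domains in Zfp131KO cells, against 0 in wildtype. The region chr5:110652805-110655000 had a log2 fold change of 3.84 ± 0.43 (SE) there in the authors' deposited table (DESeq2 adjusted p = 2.59e-15). It covers the start site and the event points shown above, and also the start of Ddx51, which is 50 bp away. At Rrp1b, 552 reads were listed in Zfp131KO cells, against 0 in wildtype, and chr17:32035362-32037150 rose by 3.84 ± 0.50 in the authors' deposited table (adjusted p = 2.32e-11). Tbl3 had 100 reads in Zfp131KO cells, against 0 in wildtype, and a pair of short regions there rose by 3.65 ± 0.56 and 3.48 ± 0.69 in the authors' deposited table (adjusted p = 1.16e-08 and 2.44e-05). Nop9 had 286 reads in Zfp131KO cells, against 0 in wildtype. Its region with the highest mean signal is 50 bp wide and rose by 2.22 ± 0.48 in the authors' deposited table (adjusted p = 0.000106). The wider Nop9 region chr14:55745830-55746548, which starts next to its strongest ZFP131 event, rose by 3.53 ± 0.55 in that table (adjusted p = 3.32e-08).

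The other 2 rises were at small regions without a ZFP131 event. Noc2l, a large subunit factor also known as an inhibitor of histone acetylation, had a 74 bp region that rose by 2.98 ± 0.47 in the authors' deposited table (adjusted p = 3.25e-08). At Utp23 a 45 bp region rose by 0.92 ± 0.35 in the authors' deposited table (adjusted p = 0.0492), and centring on the median region left 5 of the 6 members called. Without the 25% of regions with the lowest mean signal, which takes out those of Noc4l, Rrp1b and Tbl3, 2 of 3 members were called. H3K4me3 at Noc2l was 4273 reads in Zfp131KO cells and 3794 in wildtype, unlike the loss at the 4 bound genes.

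H3K4me3 fell at the same 4 of the 7 genes with at least 1000 ZFP131 reads, against 135 (33.3%) of all 406 such genes, in the authors' deposited table. Listed H3K4me3 reads at Tbl3 were 214 in Zfp131KO cells and 2199 in wildtype, with a log2 fold change of -2.96 ± 0.17 in the authors' deposited table (adjusted p = 1.73e-60). Noc4l had 2011 reads in Zfp131KO cells and 5708 in wildtype (-1.33 ± 0.11 in the authors' deposited table, adjusted p = 2.78e-29). Rrp1b had 1501 in Zfp131KO cells and 4099 in wildtype (-1.16 ± 0.14 in the authors' deposited table, adjusted p = 4.16e-14). Nop9 had 1559 in Zfp131KO cells and 2939 in wildtype (-0.63 ± 0.16 in the authors' deposited table, adjusted p = 0.00107). By the log2 ratio of listed reads, Nop10 (-0.91) and Nop58 (-0.88) fell about as much as Nop9 (-0.91). Neither Nop10 nor Nop58 had an H3K27me3 region in Zfp131KO cells. At Tbl3, Noc4l, Rrp1b and Nop9 the mark was reduced and still listed, with the least left at Tbl3.

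H3K27ac fell at these genes as well. Domains were no longer listed at Noc4l, Tbl3 and Nop9 in Zfp131KO cells (0 reads each), against 392, 189 and 127 reads in wildtype, and Rrp1b had 78 reads in Zfp131KO cells and 479 in wildtype. The authors' deposited table gave log2 fold changes of -2.49 ± 0.39 at Noc4l, -1.95 ± 0.61 at Tbl3, -1.75 ± 0.40 at Nop9 and -1.54 ± 0.34 at Rrp1b (adjusted p = 2.28e-08, 0.00771, 0.000206 and 0.000114). SIN3A fell by 1.70 ± 0.26 at Tbl3 and by 0.69 ± 0.18 at Noc4l in the authors' deposited table (adjusted p = 6.6e-08 and 0.00592), and had -0.62 ± 0.21 at Rrp1b (adjusted p = 0.0541) and -0.10 ± 0.25 at Nop9 (adjusted p = 0.877), which were not called.

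Bysl, Utp15 and Gar1, whose ZFP131 reads lie between those of Rrp1b and Tbl3, had other values. None had an H3K27me3 region in Zfp131KO cells. Their H3K4me3 values in the authors' deposited table were -0.05 ± 0.10, -0.17 ± 0.09 and 0.17 ± 0.09, none of them called (adjusted p = 0.762, 0.192 and 0.164). H3K27ac fell at Utp15, by 1.05 ± 0.32 in the authors' deposited table (adjusted p = 0.00561), and had -0.50 ± 0.27 at Bysl and -0.61 ± 0.25 at Gar1 (adjusted p = 0.157 and 0.054). The difference between the 4 genes and these 3 was not tested.

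**Figure D2:**
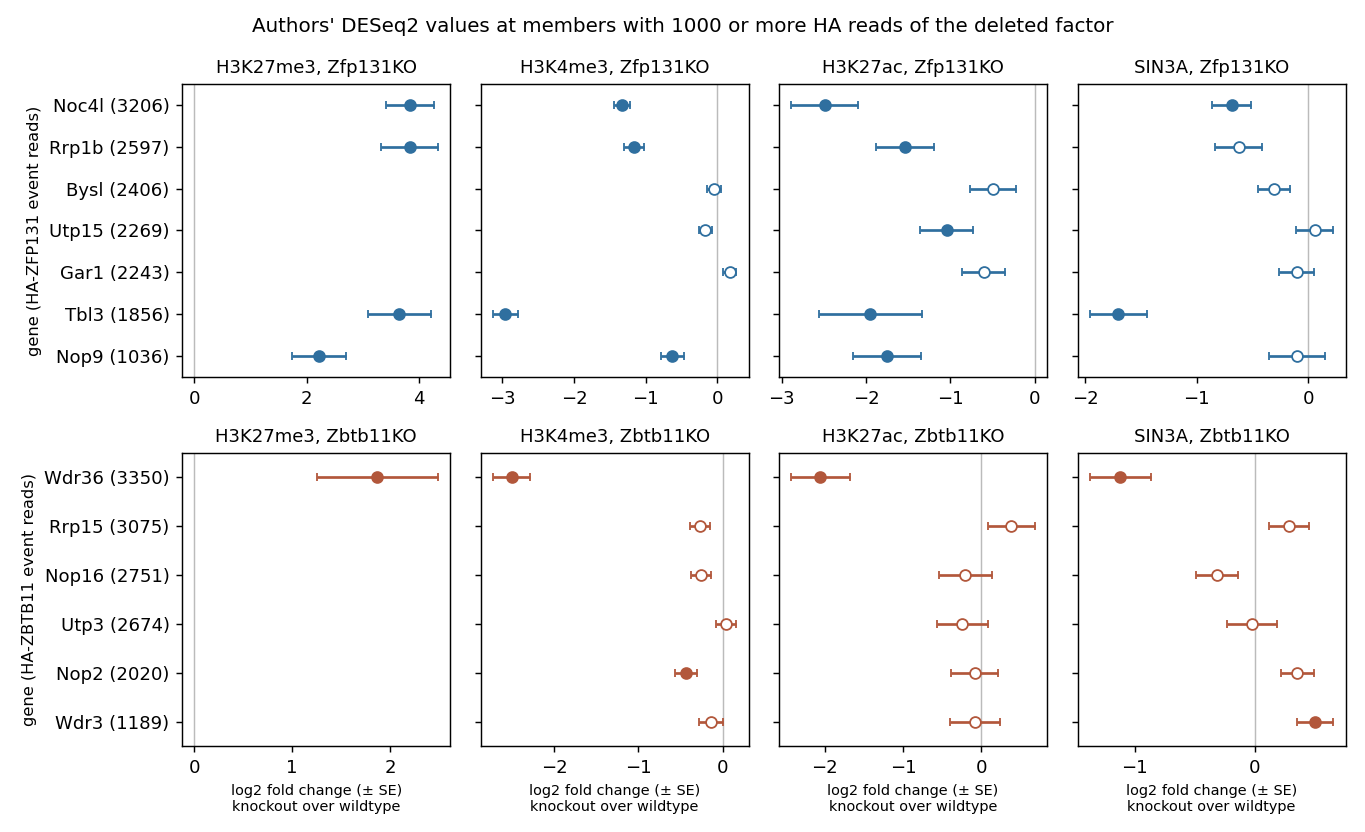
Log2 fold changes (± SE) of H3K27me3, H3K4me3, H3K27ac and SIN3A from the authors' deposited tables, in Zfp131KO cells for the 7 members with at least 1000 ZFP131 reads (top) and in Zbtb11KO cells for the 6 with at least 1000 ZBTB11 reads (bottom), ordered by reads. Filled points are called at an adjusted p under 0.05, genes without a region have no point, and H3K27me3 has points at 4 genes of the top row and at Wdr36 of the bottom row.

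Wdr36 was the only member called for H3K27me3, and the only one for H3K27ac, in Zbtb11KO cells. In this knockout 2 members had an H3K27me3 region. Of these, 1 was called higher and none lower in the authors' deposited table, against 6.46% and 3.51% of genes with a region. Neither had a domain in wildtype, so their regions come from the knockout list. Regions listed in Zbtb11KO cells alone had a median log2 fold change of 0.88, so the shares are not a like comparison. With or without a region, 1 of 45 members was called higher and none lower, against 411 and 223 of 21887 protein-coding genes. H3K27me3 reads at Wdr36 were 511 in Zbtb11KO cells, against 0 in wildtype. The region of highest mean signal, 41 bp wide, rose by 1.87 ± 0.62 in the authors' deposited table (adjusted p = 0.0243), and the region of 1366 bp over the start, chr18:32836727-32838092, rose by 3.80 ± 0.52 (adjusted p = 2.12e-10). At Wdr36, H3K4me3 reads were 393 in Zbtb11KO cells and 2472 in wildtype, and the authors' deposited table gave -2.51 ± 0.22 (adjusted p = 3.28e-28). H3K27ac at Wdr36 was not listed in Zbtb11KO cells (0 reads, against 183 in wildtype), with -2.06 ± 0.37 in the authors' deposited table (adjusted p = 1.57e-06). SIN3A fell by 1.12 ± 0.26 at Wdr36 in the authors' deposited table (adjusted p = 0.00114), with 95.8 listed reads in Zbtb11KO cells and 295 in wildtype.

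In Zfp131KO cells Wdr36 moved the other way for a pair of these targets. H3K4me3 rose by 0.59 ± 0.10 and SIN3A by 0.81 ± 0.23 in the authors' deposited table (adjusted p = 1.55e-07 and 0.0132), and no H3K27me3 was listed. Both knockouts were compared with the same wildtype libraries, and the difference between them was not tested. The other 5 members with at least 1000 ZBTB11 reads had no H3K27me3 region in Zbtb11KO cells. Among all 673 genes with that many ZBTB11 reads, 61 (9.06%) were called higher for H3K27me3 in the authors' deposited table.

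Double knockout cells, measured for H3K4me3 and NELF, showed both sets of losses. H3K4me3 reads were below wildtype at 5 of 43 members in double knockout cells, against 10.0% of 13889 genes, so the share was near that of all genes. These 5 were Tbl3 (200.0 reads in double knockout cells and 2199 in wildtype), Rrp1b (2048 in double knockout cells and 4099 in wildtype), Nop9 (1568 in double knockout cells and 2939 in wildtype), Noc4l (3548 in double knockout cells and 5708 in wildtype) and Wdr36 (1439 in double knockout cells and 2472 in wildtype). In Zbtb11KO cells, Tbl3 had 1494, Rrp1b 3021, Nop9 2846 and Noc4l 4323 H3K4me3 reads, nearer to wildtype than in Zfp131KO cells. The log2 ratios of the other 38 members ran from 0.40 to 1.13 without overlap with these 5. The median over all genes was 0.72 and depth is not given, so relative to that median the 5 stood between -4.18 (Tbl3) and -1.41 (Noc4l). No test was possible for the double knockout, which has 1 pooled value. The wildtype list is shared with the single knockout comparisons.

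Listed NELF reads were also fewer at the 5 genes in double knockout cells, as they were at every member with an event in wildtype. Scaled to the total reads of each pooled list (RPM), Rrp1b had 3.38 NELF RPM in Zfp131KO cells and 0 in double knockout cells, against 22.8 in wildtype. Noc4l had 5.79 in Zfp131KO and 3.19 in double knockout cells, against 21.8 in wildtype. At Nop9 the values were 4.28 in Zbtb11KO, 2.27 in Zfp131KO and 0 in double knockout cells, against 9.38 in wildtype, and at Tbl3 they were 0 in Zfp131KO and double knockout cells, against 9.07 in wildtype. Wdr36 had 4.48 in Zbtb11KO, 12.5 in Zfp131KO and 0 in double knockout cells, against 12.7 in wildtype. A value of 0 means that no event was listed, which is not an absence of reads. In double knockout cells 10 members had no event, 6 of them other genes (Noc2l, Noc3l, Dkc1, Utp6, Rrp9 and Imp3), and 48.9% of all genes of the wildtype list kept one. Nop16 (-2.87) and Imp4 (-2.73) had log2 ratios close to that of Noc4l (-2.78) there.

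**Figure D3:**
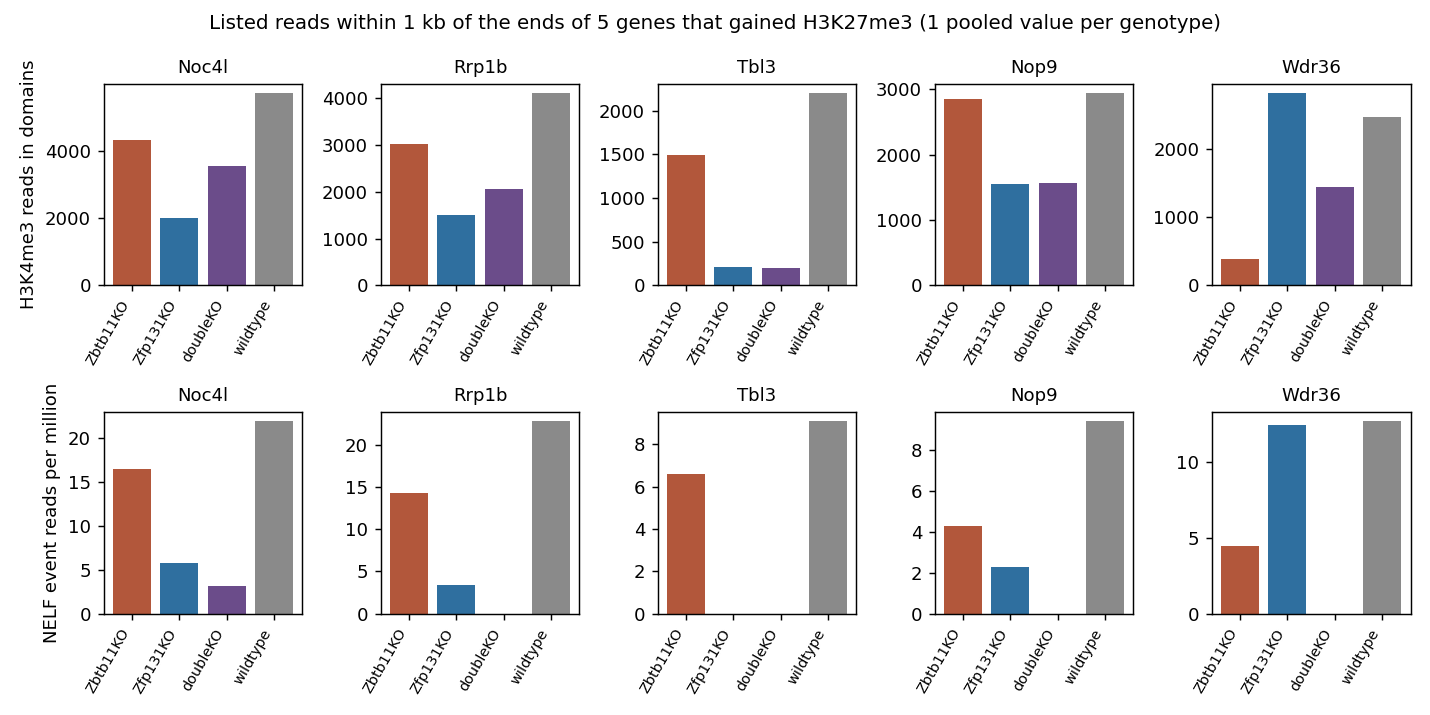
Listed H3K4me3 reads (top, unscaled) and NELF event RPM (bottom) within 1 kb of the ends of 5 genes, 1 pooled value for each of Zbtb11KO, Zfp131KO, double knockout and wildtype cells, so there are no error bars. Tbl3 has 214 and 200.0 H3K4me3 reads in Zfp131KO and double knockout cells, against 2199 in wildtype, and Wdr36 has 393 in Zbtb11KO cells, against 2472 in wildtype.

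Across the members as a whole, the median NELF RPM was lower in every knockout, with medians above those of all genes. In the authors' deposited table for Zbtb11KO cells all 43 members with a region had values below 0, with a median log2 fold change of -0.71, against -0.97 over all 13321 genes tested. Of these members 19 were called lower and 0 higher in the authors' deposited table, against 55.3% and 0.0901% of genes, and 0 of 43 were called in either direction once the table was centred on its median region, where 3 were higher and 0 lower at an unadjusted p under 0.05. The largest falls by adjusted p in the authors' deposited table were at Noc2l (-1.41 ± 0.33, adjusted p = 0.000479), Wdr36 (-1.35 ± 0.33, 0.000775), Nop2 (-1.23 ± 0.31, 0.000917) and Dkc1, the pseudouridine synthase of H/ACA particles (-1.29 ± 0.38, 0.00482). Wdr43 of UTP-A, Imp4 of the MPP10 complex, Utp18 of UTP-B and Utp23 followed, between -1.07 and -0.91 in the authors' deposited table. By role, 5 of 11 other small subunit factors and 5 of 11 large subunit factors were called lower in the authors' deposited table, and none of the 3 box C/D genes, which include the methyltransferase gene Fbl.

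Event lists cover NELF in all 4 genotypes. Of the 43 members with NELF in wildtype, 40 (93%) were still listed in Zbtb11KO cells, 41 (95.3%) in Zfp131KO cells and 33 (76.7%) in double knockout cells, against 72.1%, 73.8% and 48.9% of all genes listed in wildtype. The median log2 ratio of NELF RPM was -0.67 in Zbtb11KO, -0.40 in Zfp131KO and -1.54 in double knockout cells, against -0.91, -0.73 and -1.76 over all genes. Events held 9.8%, 11.4% and 5.1% of reads in these knockouts, against 23.1% in wildtype. Scaled to the reads in events, the medians became positive: 0.57, 0.61 and 0.64, against 0.33, 0.29 and 0.42 over all genes. The medians of members were thus above those of all genes under both scalings. A direction for NELF over the whole set therefore rests on the scaling, while Rrp1b (-2.75 for the log2 ratio of RPM in Zfp131KO cells) had -2.02 relative to the all-gene median.

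**Figure D4:**
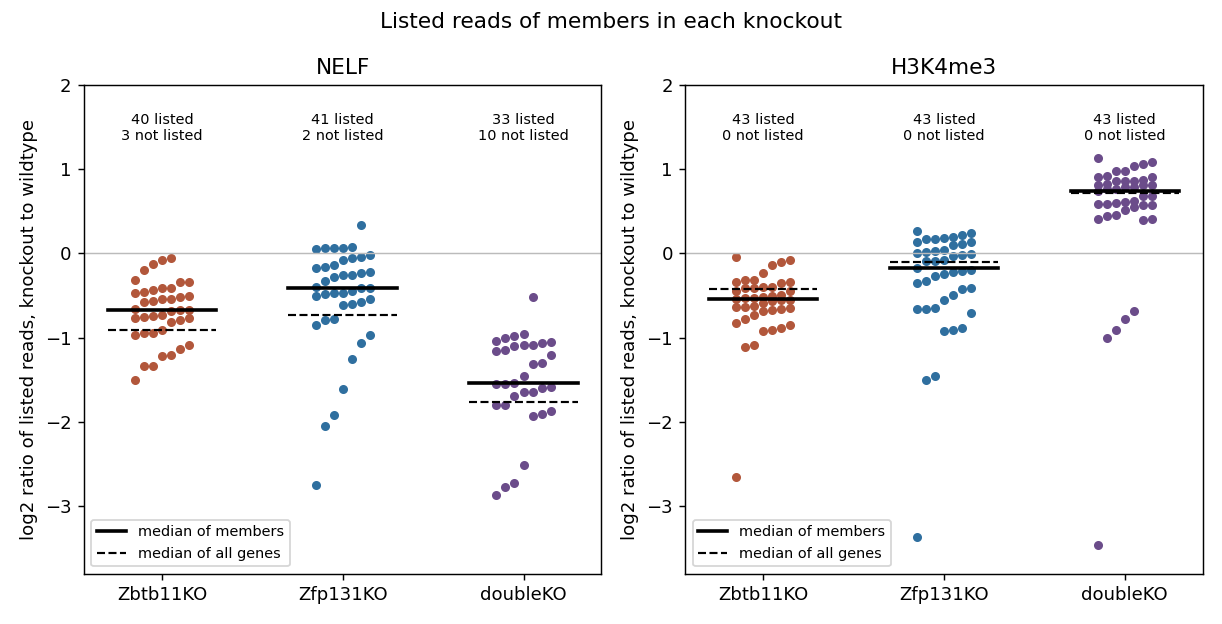
Log2 ratios of listed reads to wildtype for NELF (left, RPM) and H3K4me3 (right, unscaled) in each knockout, 1 point per member, with the medians of members and of all genes. For NELF 40, 41 and 33 of 43 members are still listed, and for H3K4me3 in double knockout cells 5 points lie below 0.

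H3K4me3 in Zfp131KO cells was called at 23 of 43 members. Of these, 16 were higher and 7 lower in the authors' deposited table, against 33.5% and 4.18% of genes, and the median of 0.17 was near that of all genes (0.24). Besides the 4 bound genes, the lower members in the authors' deposited table were Nop10, an H/ACA protein (-0.60 ± 0.21, adjusted p = 0.02), Utp6 (-0.34 ± 0.12, adjusted p = 0.0234) and Wdr12 (-0.34 ± 0.14, adjusted p = 0.0468). The rises in the authors' deposited table were smaller than the falls at Tbl3, Noc4l and Rrp1b, the largest being 0.68 ± 0.10 at Ltv1, a late small subunit factor (adjusted p = 1.03e-09). Dcaf13, Wdr46, Rrp7a, Wdr3, Fbl and Ebna1bp2 rose by 0.45 to 0.61 in the authors' deposited table. By role, 3 of 4 U3 and MPP10 genes rose and none fell in the authors' deposited table.

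For Zbtb11KO cells the number of members with higher or lower H3K4me3 depended on the scaling, while their median stayed below 0. The calls of the authors' deposited table were higher at 9 members and lower at 20, against 42.9% and 24.8% of genes, with medians of -0.29 for members and 0.17 for all genes. Centred on its median region, the authors' deposited table gave 10 higher and 12 lower, with a median of -0.12 for members. In Zfp131KO cells 28 of 43 members had fewer listed reads than wildtype, against 62.9% of genes. By listed reads, all 43 members had fewer reads in Zbtb11KO cells than in wildtype, against 77.5% of genes, including the 9 called higher. Listed reads are unscaled, with a median log2 ratio of -0.54 for members and -0.42 over all genes. Relative to the all-gene median, 2 of these 9 were lower and 7 higher. Ncl, the gene of nucleolin, had 2.93 ± 0.06 in the authors' deposited table and 9802 reads in Zbtb11KO cells, against 11506 in wildtype, which is 0.19 relative to the all-gene median. Log2 values over genes also spread more widely in that table (SD 1.34) than in the listed reads (SD 0.65). Gar1, Noc2l, Utp18, Nop9 and Wdr43 were likewise higher in the authors' deposited table (1.31 to 2.10) and had listed log2 ratios of 0.01 (Wdr43) to 0.37 (Nop9) relative to that median. Relative to that median, listed values of these 6 genes were far smaller than those in the table. At 0.01, Wdr43 had no clear direction by listed reads. Falls that both sources show included Wdr36, Utp23 (-1.17 ± 0.19, adjusted p = 9.36e-09, in the authors' deposited table, with 1146 reads in Zbtb11KO cells and 2153 in wildtype) and Nop10 (-0.97 ± 0.17, adjusted p = 8.15e-08, in the authors' deposited table, with 1250.0 reads in Zbtb11KO cells and 2653 in wildtype). By the log2 ratio of listed reads, Dkc1 (-1.11), Nop10 (-1.09) and Npm1 (-0.92) fell more than Utp23 (-0.91).

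**Figure D5:**
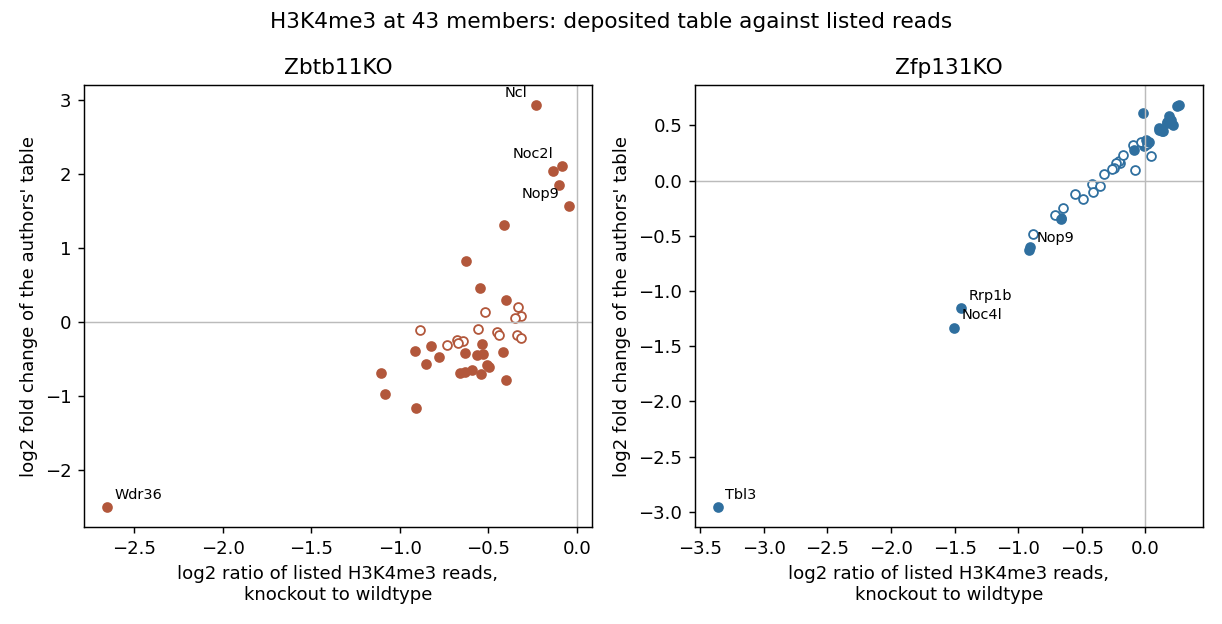
Log2 fold change of H3K4me3 in the authors' deposited tables (y axis) against the log2 ratio of listed reads (x axis) for 43 members in Zbtb11KO (left) and Zfp131KO cells (right), where filled points are called at an adjusted p under 0.05. In Zbtb11KO cells the 9 members called higher lie left of 0 on the x axis, where the median of all genes is -0.42, and Wdr36 is low on both axes.

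H3K27ac domains of wildtype were still listed at 40 of 43 members in Zbtb11KO cells (84.8% of genes) and at 39 of 43 in Zfp131KO cells (86.9% of genes). In Zfp131KO cells 7 of 43 were called lower and none higher in the authors' deposited table, against 11.1% and 4.56% of genes, with medians of -0.16 for members and -0.15 for all genes. Of these 7, 5 were among the 7 genes strongly bound by ZFP131, and of all 406 such genes 137 (33.7%) were called lower. The remaining 2 in the authors' deposited table were Rrp8, a methyltransferase of large subunit RNA (-1.11 ± 0.30, adjusted p = 0.00156), and Utp3 (-0.94 ± 0.36 in a 45 bp region, adjusted p = 0.0333), where listed reads were 484 in Zfp131KO cells and 494 in wildtype. In Zbtb11KO cells Wdr36 alone was called lower and none higher in the authors' deposited table, against 9.94% and 3.70% of genes. With the region of lowest adjusted p per gene in place of the strongest, 13 members were called in Zfp131KO cells, all lower, and 5 in Zbtb11KO cells, 2 higher and 3 lower.

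SIN3A rose at 7 members and fell at 1 in Zbtb11KO cells, against 5.60% and 2.33% of genes in the authors' deposited table. The rises in the authors' deposited table were at Noc3l, a large subunit factor (0.86 ± 0.15, adjusted p = 8.72e-06), and, between 0.40 and 0.55, at Utp20, Ltv1, Rrp12, Wdr3, Ncl and Dcaf13, and the fall was at Wdr36. In Zfp131KO cells 4 members were higher and 3 lower in the authors' deposited table, against 5.62% and 1.57% of genes, and centred on the median region 3 were higher and 4 lower. Besides Tbl3 and Noc4l, Fbl was lower (-0.65 ± 0.14, adjusted p = 0.000413), and Wdr36, Noc3l, Utp20 and Ncl were higher (0.42 to 0.81) in the authors' deposited table. CHD4 had a region at 4 members in the Zbtb11KO table and at 7 in the Zfp131KO table, and DESeq2 called none in either direction in the authors' deposited tables, against 2.10% higher and 0.636% lower of genes in Zbtb11KO and 1.10% higher and 6.09% lower in Zfp131KO cells. At an unadjusted p under 0.05, 0 of the 4 and 1 of the 7 members were past the threshold in the authors' deposited tables.

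In wildtype cells most members carried the marks of active promoters. H3K4me3, H3K27ac and NELF were each listed at 43 of 45 members, against 64.5%, 46.3% and 59.3% of genes, SIN3A at 44 (60.5% of genes), CHD4 at 3 (11.3% of genes), SETD1A at 38 (43.7% of genes) and serine 5 polymerase at all 45 (57.4% of genes). Median listed reads were 4320 (H3K4me3) and 911 (NELF) per member, against 2130 and 562 per listed gene. The 4 genes strongly bound by ZFP131 that gained H3K27me3 had unequal polymerase in wildtype, with 3050.0 serine 5 reads at Rrp1b, 790.0 at Noc4l, 296 at Tbl3 and 219 at Nop9. Heatr1 of UTP-A and Rrp1 of the large subunit had no H3K4me3 or NELF listed within 1 kb of their RefSeq ends in any genotype, and their values are not described further.

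Several members share a promoter with a neighbour, so a mark there cannot be given to 1 gene. The RefSeq start of Noc4l lies 50 bp from that of Ddx51, Nop9 9 bp from Dhrs1, Utp15 84 bp from Ankra2, Wdr3 26 bp from Gdap2, and Noc2l 202 bp from Klhl17. Bysl and Med20 are 93 bp apart. Nop16 lies 134 bp from Higd2a. The ZBTB11 events of 1096.5, 844.0 and 531.2 reads counted for Nop16 lie at -339, -399 and -248 bp from its start, past the start of Higd2a. No other gene end was found within 1 kb of Rrp1b, Tbl3 or Wdr36 at the end with H3K4me3.

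Other genes of the pathway, 105 that are not members, were taken from lists of processing factors, RNA polymerase I, the exosome and snoRNP assembly. H3K27me3 was higher in Zfp131KO cells in the authors' deposited table at 5 of 8 with a region, 1 being Ddx51 through the region it shares with Noc4l, against 9.95% of all genes with a region. Out of all 105 genes this was 5, against 654 of 21887 protein-coding genes. A gene can have a region through a domain in the knockout alone, and such regions had a median of 1.06. The shares among genes with a region are therefore not a like comparison. Of the 14 pathway genes with at least 1000 ZFP131 reads, 3 were called higher, 1 had a region that was not called and 10 had no region in the authors' deposited table. Ddx10, an RNA helicase gene (3.79 ± 0.44, adjusted p = 4.16e-14), Exosc9 of the exosome (3.16 ± 0.48, adjusted p = 1.36e-08) and Nufip1 of snoRNP assembly (2.77 ± 0.49, adjusted p = 1.42e-06) were higher in the authors' deposited table and had 1281, 764 and 2594.5 ZFP131 reads. Nle1, without a ZFP131 event, rose by 2.17 ± 0.35 in the authors' deposited table (adjusted p = 6.76e-08). Exosc7, with 1915 ZFP131 reads, lost H3K27ac (-2.32 ± 0.31), H3K4me3 (-1.44 ± 0.14) and SIN3A (-1.26 ± 0.24) in Zfp131KO cells in the authors' deposited table (adjusted p = 2.91e-11, 1.02e-22 and 3.84e-05). In Zbtb11KO cells H3K27me3 was called by DESeq2 at none of the 4 with a region (2 at an unadjusted p under 0.05), and NELF was lower at 45 of 103 and higher at none, with a median of -0.71, in the authors' deposited table, against 55.3% lower and a median of -0.97 over all genes. SIN3A was higher in Zbtb11KO cells at 19 of 103 and lower at none in the authors' deposited table, against 5.60% and 2.33% of all genes, led by the RNA helicase gene Ddx21 (0.98 ± 0.14, adjusted p = 1.63e-08) and Las1l (1.48 ± 0.23, adjusted p = 8.24e-08).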

How the data were processed

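ChIP-seq of 9 targets was performed in 4 genotypes of mouse embryonic stem cells. The submitters' processing notes name mm10, Bowtie 1.0.1 and DESeq2 1.28.1. The deposited domain lists hold counts of reads per domain with a score, and the deposited event lists hold signal, the reads of each binding event summed over replicates by the authors and not scaled for depth, with its log2 fold over a scaled control. The deposited comparison tables hold a log2 fold change and an adjusted p-value per region from the authors. The NELF tables labelled for both knockouts are identical and hold the regions of the Zbtb11KO list, so they were used for Zbtb11KO, and NELF in Zfp131KO cells was taken from lists. The SIN3A event list of Zfp131KO cells is identical to that of CHD4 and was not used.

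Each value was assigned to a gene when it lay within 1 kb of an end of the gene in the RefSeq table. The end that carries H3K4me3 (at least 33.3% of the reads at the stronger end) served as an alternative and for neighbouring genes. In tables the region of highest mean signal stood for the gene, and a call was an adjusted p under 0.05. No model was refitted, and p-values are those of the authors over all regions. All members could be named, with full values for up to 8 rises and 8 falls per table by adjusted p, the 10 members with most HA reads per factor, members with called H3K27me3, and up to 4 other pathway genes per table. Python 3.11.15, pandas 2.3.3, NumPy 2.4.6 and SciPy 1.17.1 were used, and the assignment was tested on simulated data. The alternatives were other windows, other regions per gene, a stricter threshold, centring, a filter on low signal and other scalings. The members and lists were chosen with earlier results of these data known.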

Additional observations from a re-analysis of the deposited data

How the results depend on the processing

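Of 114 alternatives for 19 results, 98 kept the value, 13 moved it and 3 reversed it. Reversed were the medians of listed NELF reads, which became 0.57 in Zbtb11KO, 0.61 in Zfp131KO and 0.64 in double knockout cells when scaled to the reads in events. The medians over all genes then became 0.33, 0.29 and 0.42. At an adjusted p under 0.01, members called fell to 9 for NELF, 0 for H3K27me3 and 3 for SIN3A in Zbtb11KO cells and to 3 for SIN3A in Zfp131KO cells. Centring left 0 members called for NELF. For H3K27ac the region of lowest adjusted p gave 5 members in Zbtb11KO and 13 in Zfp131KO cells, and a window of 500 bp gave 2 in Zbtb11KO cells. Leaving out the 25% of regions with the lowest mean signal gave 0 for H3K27ac and 0 for H3K27me3 in Zbtb11KO cells and 2 for H3K27me3 in Zfp131KO cells, by its construction. Events with a log2 fold over control of at least 3 left ZFP131 at 9 members, against 5.17% of all genes. The median H3K4me3 ratio in Zbtb11KO cells was -0.12 relative to all genes. Apart from the filter on mean signal, the cause of these changes was not tested. The widest region per gene, an alternative chosen after seeing the data, left 1 and 6 members called for H3K27me3 in Zbtb11KO and Zfp131KO cells. No paired analysis was possible because the files pool the replicates of a group and hold no value per gene and library, and for the same reason no replicate could be left out. The share of NELF reads in events, 5.1% in double knockout cells (2.7% and 8.0% in its replicates) and 23.1% in wildtype, limits what a missing event can show.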
